A study of Mus musculus with 4 samples.

Results

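Fibro-adipogenic progenitors (FAPs) were selected on their own UMI counts in single-cell libraries of mouse hindlimb muscle, as the barcodes that carried Pdgfra and a stromal matrix signature, and 141 of 6544 kept barcodes met that rule. A kept barcode had at least 200 genes, at least 500 unique molecular identifiers (UMIs, each standing for 1 captured transcript) and at most 20% of UMIs from mitochondrially encoded genes. Within these, a FAP had at least 1 UMI of Pdgfra and at least 10 UMIs summed over Pdgfra, Dcn, Col3a1, Dpt, Lum and Clec3b. It also had fewer than 3 UMIs of the tendon genes Tnmd, Fmod and Thbs4, fewer than 3 of the endothelial genes Pecam1, Cdh5, Egfl7 and Cldn5, and none of Ptprc, the leukocyte antigen CD45. These 14 genes chose the members and are given below only as description.

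There were 4 libraries, 1 per group. Male C57Bl/6J mice received 3 fractions of 8.2 Gy X-rays to 1 hindlimb at 5 weeks of age (IR), with the body shielded, and the opposite limb of the same animals was the unirradiated control (CON). Limbs were taken 24 hours or 56 days after irradiation, freed of connective and fat tissue, dissociated with enzymes, and pooled from 3 limbs before live mononucleated cells were sorted. The libraries are called CON 24-hours and IR 24-hours at the early time, with CON 56-days and then IR 56-days at the late one. Sets of 4 values keep this order. The control limb belonged to an animal that had itself been irradiated elsewhere, and animals within a pool cannot be told apart. With 1 library per group no difference between groups was tested, and intervals in parentheses are exact 95% intervals for counting error only, unless said otherwise.

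FAPs are mesenchymal cells that lie between muscle fibres and around vessels. They deposit much of the muscle's connective tissue, release factors that act on satellite cells (the muscle stem cells), and can give rise to fibroblasts or, in damaged or diseased muscle, to fat cells. Ionising radiation breaks DNA and stabilises p53, a transcription factor that switches on genes for cell cycle arrest, DNA repair and apoptosis.

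The libraries gave 25, 31, 62 and 23 FAPs, from 1336, 2539, 1700 and 969 kept barcodes. These were 1.87% (1.21 to 2.75), 1.22% (0.831 to 1.73), 3.65% (2.81 to 4.65) and 2.37% (1.51 to 3.54) of kept barcodes, so the irradiated library had the lower share at each time and the intervals overlapped between CON and IR at both. Selected on barcodes thinned to 1000 UMIs, the shares were 1.05%, 0.462%, 2.70% and 1.43%, in the same order within each time. Over kept barcodes outside the leukocyte class the shares were 2.61%, 1.34%, 4.70% and 2.72%. That class carries Ptprc, no Pdgfra and fewer than 3 UMIs of the endothelial genes. Shares in a sorted suspension also move with the number of other cells: endothelial barcodes numbered 470, 1544, 763 and 478. The FAPs held 184081, 297255, 460933 and 120862 UMIs in all, with medians of 6019, 9422, 6939.5 and 4845 UMIs per cell, and the single largest cell held between 3.24% and 10.6% of a library's FAP UMIs. Irradiated FAPs were thus the deeper ones at 24 hours and the shallower ones at 56 days, and the part of this in the ratios below was not tested, beyond the thinned values given. No FAP barcode occurred in another library, against 11 of 7075 distinct barcodes overall.

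The members nearest the threshold on the 6 summed markers had 19 UMIs inside it, and the 2 barcodes just outside, both in IR 24-hours, had at most 5. A further 177 barcodes had 10 or more UMIs of the 6 markers and none of Pdgfra, and were left out. Among FAPs, 35 rested on a single Pdgfra UMI. The label was checked on some of the genes that the rule did not use. Gsn, which encodes the actin-severing protein gelsolin, stood at 18764, 13853, 23561 and 27056 CPM (the usual depth-scaled unit, here the UMIs of a gene relative to the UMI total of its class in a library) in FAPs and at no more than 43.7 in endothelial barcodes. Cd34, a surface sialomucin of progenitors that endothelium shares, had 1244, 1467, 1315 and 1109 CPM in FAPs against 371 to 589 in endothelial barcodes. Cd248, encoding the stromal sialomucin endosialin, had 831, 1241, 746 and 827 CPM and at most 9.52 in endothelial barcodes, and Mfap5, a microfibril glycoprotein gene, ranged from 1423 to 3835 CPM against at most 8.60. Osr1, a transcription factor gene of developmental FAPs, was found in every library, at 57.2 to 232 CPM. Other genes outside the rule did not set FAPs apart from each class. Ly6a had 1608, 2045, 1579 and 2557 CPM in FAPs and 1442, 1455, 1644 and 2405 in endothelial barcodes. In barcodes with at least 3 UMIs of the tendon genes, Gsn had 6532, 2772, 12055 and 10750 CPM. Col1a1 was higher there than in FAPs, at 14944, 13384, 8490 and 9124 against 9322, 4309, 3009 and 2912 CPM. Marker lists of other cell types were present at differing levels. Endothelium genes outside the rule summed to 869, 754, 625 and 1043 CPM, tenocyte genes to 646, 33.6, 158 and 306, and Schwann cell genes to 293, 232, 336 and 372, and their part in the results was not tested. Among list members, Pax7, Myf5 and Myod1 (satellite cells), Sox10 (Schwann cells), Myh11 (smooth muscle) and Scx and Mkx (tenocytes) were at 0 UMIs in FAPs of every library. Other members were detected: 2 of 8 tenocyte genes in each library, and 5, 6, 6 and 3 of 9 Schwann cell genes. Pericyte and smooth muscle genes summed to 168, 269, 193 and 190 CPM, with 2, 3, 5 and 5 of 10 detected. Satellite cell genes summed to 158, 178, 95.5 and 74.5 CPM, with 4, 4, 5 and 2 of 10 detected. The 16 leukocyte genes summed to 10.9, 3.36, 69.4 and 16.5 CPM, with 2, 1, 7 and 1 of them detected. Myofibre genes summed to 206, 283, 91.1 and 24.8 CPM.

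The clearest difference between irradiated and control FAPs lay in p53 target genes, and it was present at both times. Ratios are IR over CON of CPM, a gene counts as measured with at least 20 UMIs over both libraries, and members of a list are counted as higher or lower past 1.5-fold. At 24 hours 16 of 18 measured p53 targets were higher and 0 lower, with a median log2 ratio of 1.49. Of these 18, 3 had 0 UMIs in CON 24-hours and so counted as measured through IR 24-hours alone. The list was also chosen with earlier results of these data known. Over all 4034 measured genes 24.3% were higher and 12.5% lower, with a median of 0.09. At 56 days 8 of 10 measured targets were higher and 1 was lower, with a median of 1.15, against 14.8% higher, 23.3% lower and a median of -0.02 over 4817 genes. Between the unirradiated limbs, later over earlier, 0 of 10 were higher and 3 lower, with a median of -0.13, where 26.5% of 5100 genes were higher and 12.6% lower.

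Cdkn1a, which encodes the cyclin-dependent kinase inhibitor p21, lies on chromosome 17 at 29090976 to 29100727 (GRCm38). Its level in FAPs was 109, 1598, 111 and 629 CPM, from 20, 475, 51 and 76 UMIs in 6, 29, 18 and 9 cells. Both irradiated libraries stood above both controls, and the later control over the earlier one was 1.02 (0.597 to 1.80). IR over CON was 14.7 (9.42 to 24.3) at 24 hours and 5.68 (3.93 to 8.27) at 56 days. In CON 24-hours 1 cell held 65% of the UMIs, and without the top cell of each library the log2 ratio at 24 hours was 5.03 instead of 3.84. It was 2.97 (1.67 to 5.06) with each cell thinned to 1000 UMIs, on 4 and 47 UMIs, and 3.14 with Pdgfra not required and at least 50 UMIs of the 6 markers. After each cell was thinned to 1000 UMIs, which left out 2 shallow cells of CON 24-hours, 3 of 23, 19 of 31, 5 of 62 and 5 of 23 FAPs carried a Cdkn1a UMI. Without thinning the shares were 24.0%, 93.5%, 29.0% and 39.1%, against 6.08%, 21.7%, 9.69% and 20.3% of leukocyte barcodes, whose median depths were 4154, 3340, 4825 and 4683 UMIs. At 56 days the median FAP of either limb had no Cdkn1a UMI.

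Genes that restrain or relay p53 were also higher at 24 hours. Mdm2, the ubiquitin ligase gene through which p53 limits itself, had 4, 34, 15 and 8 UMIs, or ratios of 5.26 (1.88 to 20.4) and 2.03 (0.747 to 5.11). Ccng1, encoding cyclin G1, was at 3.41 (1.59 to 8.38) and 1.23 (0.509 to 2.67), so at 56 days the intervals of both genes included 1. Trp53inp1, which encodes a nuclear cofactor of p53, was higher at both times, at 3.84 (1.48 to 12.6) and 2.92 (1.30 to 6.38). Trp53 itself, whose product is regulated mainly at the protein level, had ratios of 1.01 (0.387 to 2.80) and 1.11 (0.405 to 2.66).

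Among effectors of apoptosis and growth arrest, Bax, a pore-forming protein of the mitochondrial outer membrane, was at 1.88 (1.24 to 2.92) and 1.91 (1.10 to 3.21). Phlda3, a repressor of Akt signalling, was at 1.59 (1.10 to 2.33) and 2.60 (1.55 to 4.31). Btg2, an antiproliferative gene, was at 3.06 (1.77 to 5.61) and 1.82 (1.01 to 3.16). Aen, which encodes a nuclease of apoptotic DNA breakdown, had 2, 24, 11 and 7 UMIs and was 7.43-fold (1.84 to 64.9) higher at 24 hours. Eda2r, the ectodysplasin A2 receptor, had 0, 21, 1 and 1 UMIs, the 21 of them spread over 14 cells, which is at least 4.33-fold higher at 24 hours against a floor of 3 UMIs in the control. Cd80, a costimulatory ligand, had 0, 25, 4 and 4 UMIs, over 12 cells of IR 24-hours, and was at least 5.16-fold higher. Ltc4s, the leukotriene C4 synthase gene, had 27 UMIs in IR 24-hours and 0 elsewhere, but all 27 lay in 1 cell.

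Some members had their higher ratio at 56 days. Ephx1, a microsomal epoxide hydrolase gene, was at 1.56 (0.985 to 2.53) at 24 hours and 2.54 (1.64 to 3.9) at 56 days. Ei24, an endoplasmic reticulum protein gene, was at 0.960 (0.530 to 1.78) and 2.35 (1.35 to 4.00). The only list member past 1.5-fold lower at either time was Rrm2b, a ribonucleotide reductase subunit, at 0.424 (0.0477 to 1.77) on 18 and 2 UMIs at 56 days. Over all FAP UMIs the list summed to 1353, 4242, 1083 and 2747 CPM, of which Cdkn1a alone held 109, 1598, 111 and 629. Summed over the list, the median cell held 9.42, 34.9, 9.11 and 21.4 UMIs of p53 targets per 10000. All 31 and all 23 irradiated FAPs carried at least 1 such UMI, and the lowest irradiated cell at 24 hours, at 12.6, lay above the median control cell. At 56 days the ranges overlapped, from 5.80 to 94.5 in irradiated and from 0 to 33.2 in control cells.

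**Figure D1:**
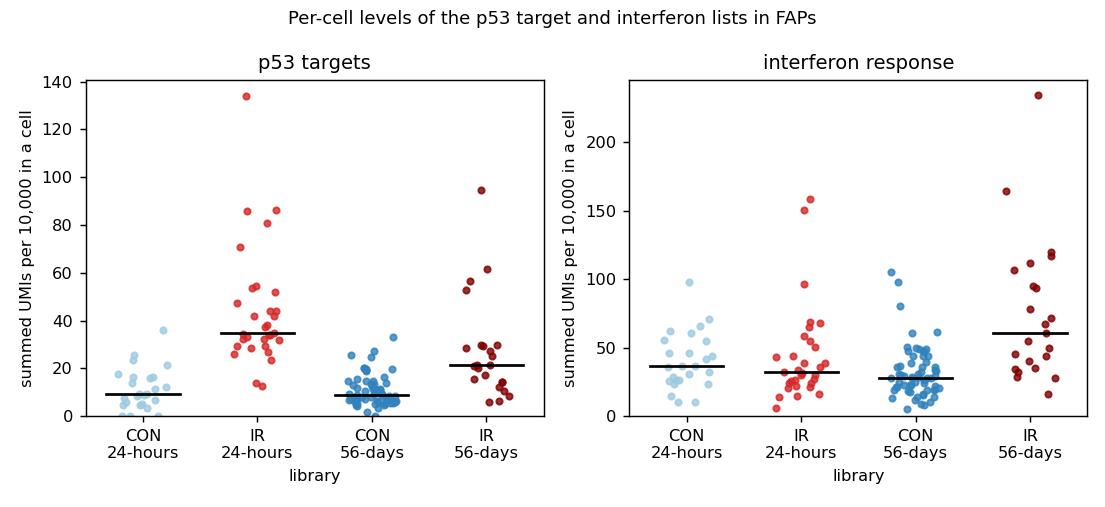
Summed UMIs per 10,000 of the p53 target list (left) and the interferon list (right) in each FAP, 1 point per cell, by library, with a black line at the median over cells. p53 medians are 9.42, 34.9, 9.11 and 21.4, and interferon medians are 36.3, 32.6, 28.2 and 60.8. Points are spread sideways at random within a library.

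**Figure D2:**
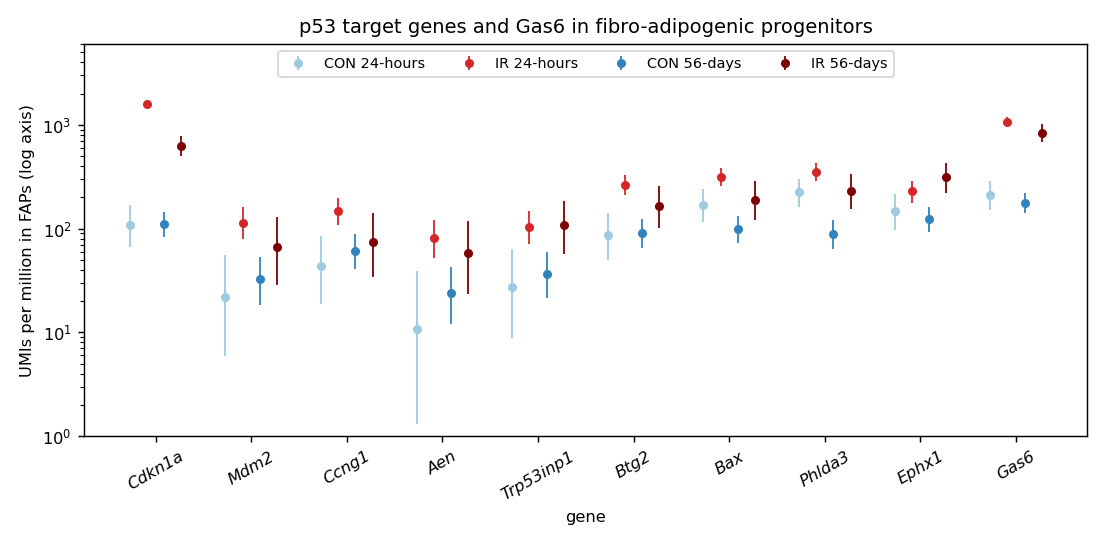
Levels of 9 p53 targets and Gas6 in FAPs, as CPM on a log axis, with exact 95% Poisson intervals, for the 4 libraries. Cdkn1a stands at 109, 1598, 111 and 629 and Gas6 at 212, 1073, 178 and 836, with both irradiated libraries above both controls.

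Promoter sequence is shown for p53 targets because they were higher together. RefSeq promoter windows (GRCm38.p6) were found for 16 of the 19 targets measured at either time, and the 250 bases before the transcription start were searched on both strands for the p53 response element decamer. It was present in 7 of these 16 (Aen, Bax, Ccng1, Cdkn1a, Ei24, Gadd45a and Mdm2) and in 8.20% of all 27025 genes with a window. The stretches below are written 5′ to 3′ on the gene's strand with the decamers in capitals and up to 30 bases either side. They lie at chr17:29090876-29090967 (plus strand) for Cdkn1a, chr10:117710905-117710974 (minus) for Mdm2, chr7:78895907-78895976 (plus) for Aen and chr7:45467060-45467129 (minus) for Bax.
Cdkn1a: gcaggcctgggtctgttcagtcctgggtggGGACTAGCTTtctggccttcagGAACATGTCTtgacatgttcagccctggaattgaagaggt
Mdm2: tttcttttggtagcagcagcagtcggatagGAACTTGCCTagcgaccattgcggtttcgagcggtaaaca
Aen: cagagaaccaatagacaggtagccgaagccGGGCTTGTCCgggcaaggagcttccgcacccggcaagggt
Bax: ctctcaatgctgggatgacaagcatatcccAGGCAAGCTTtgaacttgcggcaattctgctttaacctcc
A match describes these letters and is neither a binding site nor a cause, and p53 elements also lie outside such windows. Cdkn1a was the only one of these 4 with 2 decamers in the window, starting 73 and 51 bases before the start. The windows of Btg2 and Eda2r, 2 targets that were higher at 24 hours, held none of these letters.

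Many p53 targets were also higher in other classes. In endothelial barcodes of the same libraries the list had medians of 1.39 and 1.2 (26 of 36 and 22 of 34 measured members higher), where 17.6% and 12.7% of all genes measured in that class were higher. In tendon-gene barcodes, which carry at least 3 UMIs of Tnmd, Fmod and Thbs4, the medians were 1.04 and 1.61 (11 of 15 and 5 of 6 higher), where 26.3% and 18.2% of all genes were. In leukocyte barcodes they were 0.89 and 0.53. There 19 of 31 members were higher at 24 hours against 30.6% of all genes, and at 56 days 11 of 29 were higher and 6 lower against 25.5% and 18.4%. Cdkn1a was 7.60-fold (7.0 to 8.28) and 8.96-fold (8.09 to 9.95) higher in endothelial barcodes, which reached 2328 CPM in IR 24-hours. The FAP ratio over the endothelial ratio was 1.89 (1.21 to 2.96) at 24 hours and 0.633 (0.438 to 0.914) at 56 days, an approximate interval from the 4 counts. The 24-hour value rests on the unthinned FAP ratio, since the interval of the thinned one also holds the endothelial ratio. Free RNA in the suspension gives a low share of UMIs in any barcode. Gas6 was found in 0.794%, 5.88%, 4.45% and 9.76% of leukocyte barcodes and in 32.0%, 96.8%, 46.8% and 69.6% of FAPs. Col1a1, with more CPM than Gas6 in FAPs, was found in 0.529%, 2.71%, 1.31% and 2.44% of leukocyte barcodes. Whether the Gas6 of leukocyte barcodes was free RNA or their own was not tested.

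Gas6 was the signalling gene with the widest difference that held at both times. It encodes a vitamin K-dependent ligand of the TAM receptors Tyro3, Axl and Mertk, which take part in the clearance of dying cells. The level was 212, 1073, 178 and 836 CPM (39, 319, 82 and 101 UMIs in 8, 30, 29 and 16 cells), with both irradiated libraries above both controls. IR over CON was 5.07 (3.63 to 7.26) at 24 hours and 4.70 (3.48 to 6.37) at 56 days, and the later control over the earlier was 0.840 (0.567 to 1.26). In endothelial barcodes the ratios were 2.61 and 2.53, so the FAP ratio was 1.92 (1.37 to 2.69) and 1.85 (1.37 to 2.51) times the endothelial one, while tendon-gene barcodes were at 4.10 and 4.28. Pros1, the protein S gene and a second TAM ligand, was at 1.71 (1.08 to 2.80) and 1.75 (1.08 to 2.78), the latter turning to a log2 ratio of -0.33 on 8 and 2 thinned UMIs. Axl, the receptor gene, stood at 505, 535, 503 and 381 CPM, with ratios of 1.06 (0.815 to 1.38) and 0.756 (0.539 to 1.04).

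Factors through which FAPs act on satellite cells did not share one direction. Of the support factors, Gas6 and Pros1 among them, 4 of 8 measured were higher and 1 lower at 24 hours, and 4 of 12 were higher and 2 lower at 56 days. Over all measured genes 24.3% were higher and 12.5% lower at 24 hours, and 14.8% and 23.3% at 56 days. Igf1, the insulin-like growth factor, had 538, 259, 440 and 430 CPM, so IR 24-hours was the low library, at 0.482 (0.353 to 0.655), against 0.977 (0.706 to 1.33) at 56 days. Igfbp4, which binds and restrains that factor, was at 1391, 454, 1148 and 1117 CPM, or 0.327 (0.263 to 0.404) and 0.973 (0.800 to 1.18). Igfbp3, another binding protein, went the other way, at 4.18 (1.46 to 16.4) and 2.80 (1.16 to 6.52), on at most 27 UMIs per library with 51.9% or more of the irradiated UMIs in 1 cell. Fst, encoding follistatin, which sequesters myostatin and activins, was at 277, 340, 317 and 612 CPM, with ratios of 1.23 (0.867 to 1.75) and 1.93 (1.44 to 2.57), and 1 cell held 21.9% to 48.6% of its UMIs. Serpine2, encoding the serine protease inhibitor protease nexin-1, was at 3.02 (2.20 to 4.22) and 1.60 (1.30 to 1.97), and the later value was log2 -0.12 after thinning. Inhba, an activin subunit gene, was at 3.41 (1.41 to 9.94) at 24 hours.

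Some Wnt and chemokine genes were far lower in IR at 24 hours, on few cells. Sfrp2, a secreted Wnt antagonist, had 93, 13, 188 and 67 UMIs in 7, 6, 13 and 7 cells, with ratios of 0.0866 (0.0444 to 0.155) and 1.36 (1.01 to 1.81). Cxcl12, the chemokine that retains haematopoietic cells, had 122, 38, 106 and 17 UMIs and a ratio of 0.193 (0.130 to 0.280) at 24 hours, but 73.8% of the CON 24-hours UMIs were in 1 cell. Ccl11, the eotaxin gene, was found in 15, 26, 41 and 19 cells and was at 1.19 (0.935 to 1.52) and 1.72 (1.40 to 2.11). Other genes furthest below control at 24 hours were likewise concentrated: 55.4% of the Apoe UMIs, 60.9% of the Mmp3 UMIs (a stromelysin gene), 84.2% of the Dlk1 UMIs and all 21 C4b UMIs of CON 24-hours lay in 1 cell. Kcnk2, a potassium channel gene, was at 0.143 (0.0481 to 0.355), and Sbspon, a matrix protein gene, at 0.236 (0.136 to 0.397), in at most 6 cells of either library.

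At 24 hours the type I collagen genes were lower and Fbn1, Lama2, Vcan and Loxl2 higher, and at 56 days those last 4 were lower. Col1a1, the alpha-1 chain of type I collagen, stood at 9322, 4309, 3009 and 2912 CPM, with ratios of 0.462 (0.430 to 0.497) and 0.968 (0.859 to 1.09). CON 24-hours was the high library, and the later control over the earlier was 0.323 (0.301 to 0.347), so the 24-hour ratio sets a library against the highest of the 4. Col1a2, its partner chain, was at 0.504 (0.471 to 0.539) and 1.03 (0.932 to 1.13), and Sparc, a collagen-binding glycoprotein gene, at 13418, 8891, 4864 and 3872 CPM. The type V chains that set fibril width did not follow at 24 hours, with Col5a1 at 1.15 (0.951 to 1.39), Col5a2 at 1.14 (0.95 to 1.37) and Col5a3 at 1.15 (0.939 to 1.41). At 56 days all 3 were lower, at 0.629 (0.457 to 0.851), 0.580 (0.436 to 0.761) and 0.410 (0.284 to 0.577). The fibrillar collagen list therefore had 2 of 5 lower at 24 hours and 3 of 5 lower at 56 days, by different members. Of all measured genes 12.5% and 23.3% were lower at these times.

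In elastic fibres, Eln (tropoelastin) had 36, 9, 67 and 6 UMIs and was at 0.155 (0.0656 to 0.328) and 0.342 (0.121 to 0.783), below control at both times. Fbln1 and Mfap2, which encode fibulin-1 and a microfibril glycoprotein, were at 0.229 (0.0991 to 0.489) and 0.301 (0.161 to 0.543) at 24 hours and at 1.21 and 1.2 at 56 days. Fbn1, which encodes fibrillin-1, the scaffold on which elastin is laid, stood at 3319, 5618, 2747 and 1357 CPM, so IR 24-hours was the highest library and IR 56-days the lowest. Its ratios were 1.69 (1.54 to 1.86) and 0.494 (0.417 to 0.582). Over the list, 6 of 13 measured members were lower and 1 higher at 24 hours, against 2 lower and 2 higher of 14 at 56 days. The shares over all measured genes were 12.5% lower and 24.3% higher, then 23.3% lower and 14.8% higher.

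Of 15 measured basement membrane genes, 3 were higher and 1 lower at 24 hours, and 0 were higher and 6 lower at 56 days. All measured genes had 24.3% higher and 12.5% lower, then 14.8% higher and 23.3% lower, so the 24-hour counts lay near the background. Lama2, the laminin alpha-2 chain that anchors muscle fibres, had 516, 888, 792 and 348 CPM and ratios of 1.72 (1.36 to 2.20) and 0.439 (0.311 to 0.605). Lamc1, the laminin gamma-1 chain, was at 1.06 (0.869 to 1.31) and 0.463 (0.339 to 0.620), and Col4a1, a network-forming collagen of that membrane, at 1.11 (0.918 to 1.34) and 0.663 (0.524 to 0.830). Col15a1, which links basement membrane to fibrils, differed at 24 hours, at 0.434 (0.319 to 0.589). Hmcn1, encoding hemicentin-1, was 4.82-fold (2.40 to 11.0) higher at 24 hours. Vcan (versican, a large proteoglycan) and Loxl2 (a lysyl oxidase-like crosslinking enzyme) went the way of Fbn1, at 2.21 (1.72 to 2.86) and 2.06 (1.50 to 2.85) and then 0.529 (0.366 to 0.744) and 0.441 (0.263 to 0.702). Fn1 (fibronectin) and Timp2 (a metalloproteinase inhibitor) were within 1.5-fold at both times, at 1.06 and 1.07 and at 0.965 and 1.14.

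**Figure D3:**
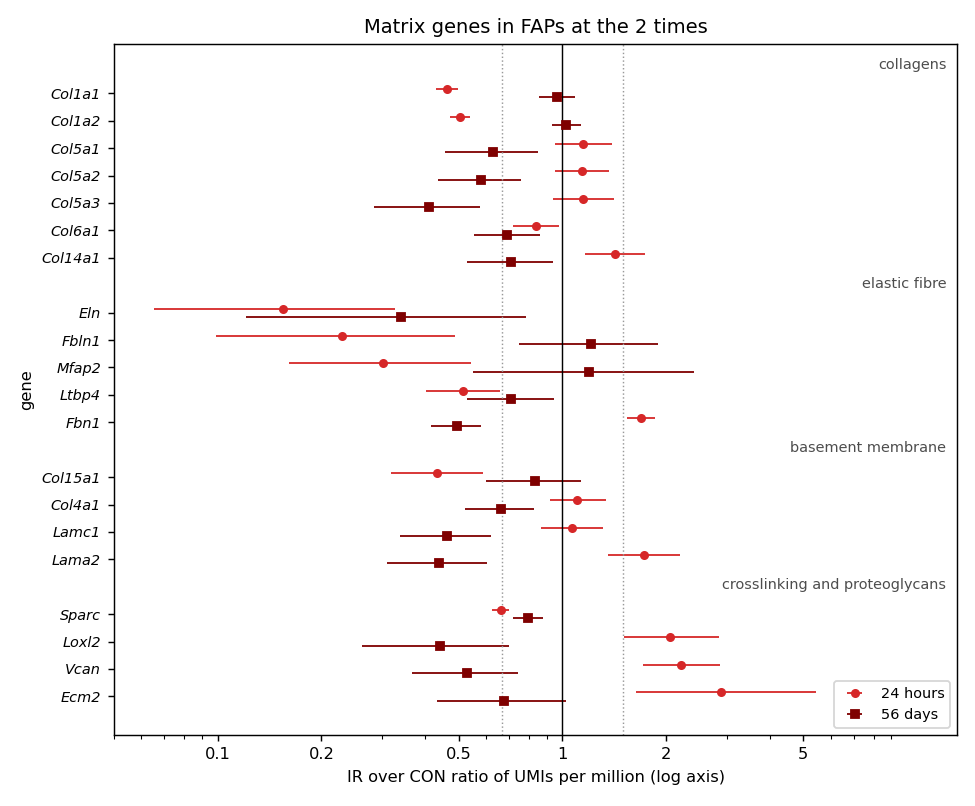
Ratios of IR over CON in FAPs for 20 matrix genes in 4 groups, on a log axis, at 24 hours (circles) and 56 days (squares), with exact 95% intervals for counting error; dotted lines mark 1.5-fold. Fbn1, Lama2, Vcan and Loxl2 lie right of 1 at 24 hours and left of it at 56 days, whereas Col1a1 and Col1a2 lie left at 24 hours and near 1 at 56 days.

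Tendon-gene barcodes, the closest stromal cells, had a smaller difference in type I collagen at 24 hours. There Col1a1 was at 0.896 (0.837 to 0.959), so the FAP ratio was 0.516 (0.468 to 0.570) times theirs, and Sparc in FAPs was 0.550 (0.503 to 0.602) times theirs at 24 hours and 0.513 (0.454 to 0.581) at 56 days. Fbn1 was at 1.52 and 0.473 in tendon-gene barcodes, and the FAP ratio was 1.12 (0.845 to 1.48) and 1.04 (0.770 to 1.41) times theirs. That class had 9 barcodes in CON 24-hours, which limits the comparison.

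Interferon-stimulated genes were the group that stood out at 56 days. These genes are switched on by type I or type II interferon through STAT transcription factors and encode antiviral proteins. At 56 days 15 of 20 measured members were higher and 1 lower, with a median log2 ratio of 1.36, and at 24 hours 5 of 10 were higher and 0 lower, with a median of 0.68. As background, 14.8% of all measured genes were higher and 23.3% lower at 56 days, and 24.3% and 12.5% at 24 hours. Isg15, 1 of the 10, had 0 UMIs in CON 24-hours. The whole list summed to 3776, 4851, 3397 and 8539 CPM in FAPs. Ifitm3, a membrane protein that blocks viral entry and the most abundant of the list, was found in 22, 29, 58 and 23 cells at 1336, 1494, 1122 and 3119 CPM. IR 56-days stood above the other 3 libraries, at 2.78 (2.43 to 3.18), against 1.12 (0.954 to 1.31) at 24 hours. Bst2 (tetherin, which holds budding virions at the membrane) had 141, 333, 86.8 and 397 CPM, with both irradiated libraries above both controls, at 2.36 (1.52 to 3.79) and 4.58 (2.95 to 7.15), though on 5 and 6 thinned UMIs the 24-hour value was log2 -0.19. Ifi27l2a, an interferon-induced gene of unsettled function, was at 1.88 (1.50 to 2.36) and 3.40 (2.75 to 4.2).

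The genes with the highest ratios at 56 days rested on few cells. Isg15, a ubiquitin-like modifier, had 0, 26, 9 and 22 UMIs in 0, 5, 5 and 3 cells and was 9.32-fold (4.13 to 23) higher at 56 days and at least 5.37-fold higher at 24 hours. Ifit3 and Ifit1, which bind or sequester viral RNA, were at 10.5 (4.50 to 27.2) and 6.61 (3.37 to 13.4), each in 7 irradiated cells. Irf7, the transcription factor that amplifies interferon production, had 2, 11, 6 and 20 UMIs in 4 irradiated cells at 56 days, or 12.7-fold (4.92 to 38.7). The summed list, in which Ifitm3 was the most abundant member, was spread over more cells than these genes. The median cell held 36.3, 32.6, 28.2 and 60.8 UMIs of the list per 10000, and the lower quartile of IR 56-days (37.6) lay above the median of CON 56-days. At 24 hours the median irradiated cell was no higher than the control one.

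Antigen presentation genes were mostly higher at 56 days when each was taken alone. Of 12 measured genes of MHC class I and the immunoproteasome, 8 were higher and 2 lower, against 3 higher and 0 lower of 10 at 24 hours. Background shares over all measured genes were 14.8% higher and 23.3% lower at 56 days and 24.3% and 12.5% at 24 hours. Summed per cell the list differed less, with medians of 18.6, 20.4, 20.9 and 25.2 UMIs per 10000, a lower quartile of 14.6 in CON 56-days and 12.7 in IR 56-days, and 20.9% of the IR 56-days UMIs in 1 cell. H2-K1, a class I heavy chain, had 261, 373, 310 and 629 CPM, with ratios of 1.43 (1.01 to 2.05) and 2.03 (1.51 to 2.70), and 44.7% of the IR 56-days UMIs were in 1 cell. H2-D1 was at 1.52 (1.21 to 1.90) at 56 days, while B2m, the shared light chain, was at 1.05 (0.782 to 1.38). Psmb8, a catalytic subunit of the immunoproteasome, was at 2.20 (1.08 to 4.31).

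Among cell classes, the interferon list had medians of -0.36 and 0.19 in endothelial barcodes and of -0.64 and 1.99 in tendon-gene barcodes (8 of 9 higher at 56 days, in a class where 18.2% of all genes were). For Bst2 the FAP ratio was 2.88 (1.87 to 4.44) and 2.86 (1.88 to 4.36) times the endothelial one. Leukocyte barcodes had list medians of 1.12 and 0.44. Within FAPs Ptprc is absent by the rule, which limits the leukocyte list, at 69.4 CPM in CON 56-days and 16.5 in IR 56-days. The part of leukocyte RNA in the interferon ratios was not tested.

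Promoters of interferon genes are shown because the list was higher together. The interferon-stimulated response element, searched as GAAA, any 2 bases and GAAA again on both strands, was held by 8 of 15 measured members with a window (Bst2, Gbp2, Gbp7, Ifit1, Ifit3, Ifitm2, Isg15 and Stat2) and by 3.46% of all 27025 genes. The windows of Irf7, Oasl2 and Xaf1 held no such match. In capitals are the matches, which overlap in Isg15 and Bst2 and lie on the other strand in Ifit1. The stretches are chr4:156200845-156200926 (minus strand) for Isg15, chr19:34640755-34640843 (plus) for Ifit1 and chr8:71537557-71537632 (minus) for Bst2, from RefSeq, GRCm38.p6.
Isg15: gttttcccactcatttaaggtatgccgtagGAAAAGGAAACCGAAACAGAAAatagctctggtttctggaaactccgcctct
Ifit1: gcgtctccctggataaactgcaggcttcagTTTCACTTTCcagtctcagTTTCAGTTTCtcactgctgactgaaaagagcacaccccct
Bst2: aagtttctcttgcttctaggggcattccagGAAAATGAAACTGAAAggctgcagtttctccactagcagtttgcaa

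**Figure D4:**
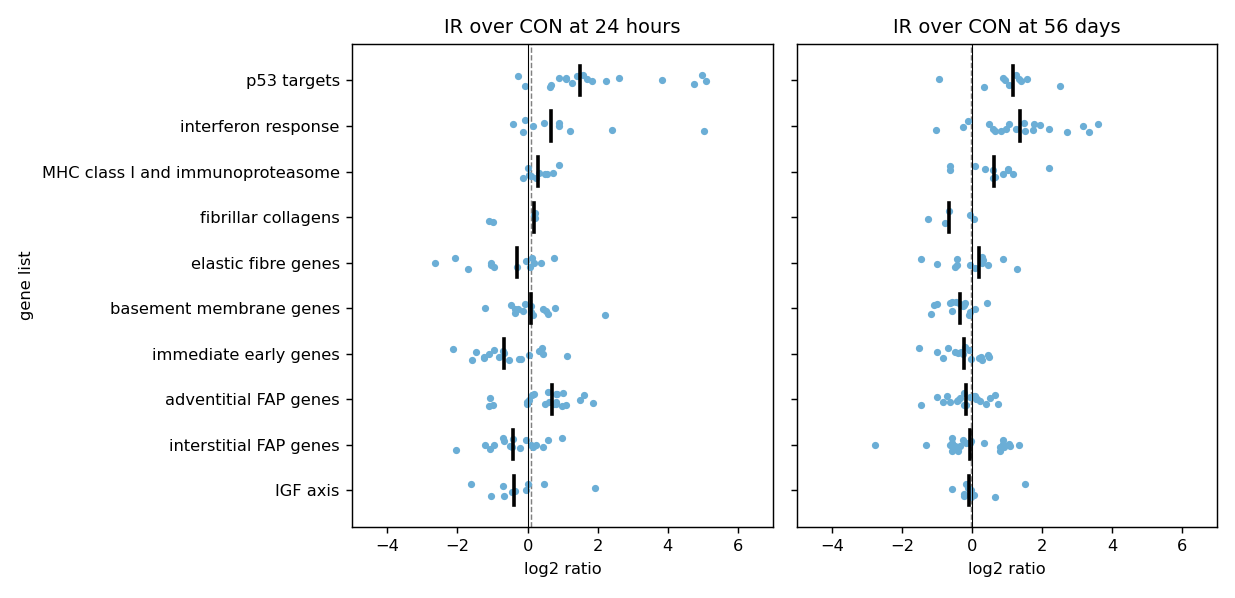
Log2 ratios of IR over CON in FAPs for the measured members of 10 gene lists (points) with the list median (black bar), at 24 hours (left) and 56 days (right); the dashed line is the median over all measured genes, 0.09 and -0.02. The p53 list has medians of 1.49 and 1.15 and the interferon list 0.68 and 1.36.

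Immediate early genes, which respond within minutes to stimuli and to tissue dissociation, were lower in irradiated FAPs at 24 hours. Of 18 measured, 10 were lower and 1 higher (median log2 ratio -0.68), and the same 24-hour control was also high against the later one, with 10 of 18 lower and a median of -0.90 between the controls. Of all measured genes 12.5% were lower at 24 hours and 12.6% between the controls. Other classes of the same libraries did not share the lower values. At 24 hours the list had medians of 0.19 in endothelial, 0.20 in tendon-gene and 1.46 in leukocyte barcodes. Fos, an AP-1 subunit gene, stood at 1494, 629, 443 and 538 CPM, and Jun, its partner, at 1695, 787, 861 and 844, so CON 24-hours was the high library for both in FAPs. Among leukocyte barcodes Fos was found in 56.9%, 70.6%, 79.1% and 65.0%, so there CON 24-hours was the low library. In FAPs the ratio of Fos was 0.421 (0.348 to 0.509) and that of Jun 0.464 (0.390 to 0.552) at 24 hours. At 56 days they were 1.22 (0.905 to 1.61) and 0.980 (0.780 to 1.22). In IR 24-hours 1 FAP held 57.8% of the Fos UMIs. These ratios share CON 24-hours with those of Col1a1 and Igf1, which were also highest in that library, and its part in them was not tested.

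Genes of the fat lineage were examined only in the barcodes that the rule selected as FAPs. Their levels there cannot show whether mature fat cells were present in the libraries. Adipoq (adiponectin) had 0 UMIs in FAPs of every library, Pparg (the master regulator of adipogenesis) had 0, 0, 0 and 1, and Fabp4, a fatty acid carrier, had 13, 1, 8 and 4. Cebpd, an early adipogenic transcription factor, was at 440, 135, 336 and 298 CPM, or 0.306 (0.204 to 0.452) and 0.886 (0.598 to 1.28). Ebf1, a transcription factor of the adipogenic and stromal lineages, was higher at both times in 20, 30, 57 and 20 cells, at 1.58 (1.30 to 1.92) and 1.59 (1.33 to 1.89). The lipid carriers were lower at 24 hours and higher at 56 days. Apod (apolipoprotein D) had 2434, 1103, 994 and 4029 CPM, or 0.453 (0.392 to 0.524) and 4.06 (3.56 to 4.62), and Apoe (apolipoprotein E) was at 0.10 (0.0497 to 0.186) and 3.76 (2.93 to 4.81). In both genes 1 cell held 35.5% or more of the UMIs in each library but CON 56-days. Acta2, the smooth muscle actin of myofibroblasts, had 0, 0, 1 and 0 UMIs, and Postn (periostin) was at 771 CPM in the earlier and 21.7 in the later control, with 61.3% of the former in 1 cell. Cdkn2a, encoding the senescence-associated inhibitors p16 and p19, had 0 UMIs in each library.

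Complement genes, many of them made by stromal cells, were divided. C3, the central component, was at 739, 616, 965 and 1564 CPM, or 0.833 (0.664 to 1.05) and 1.62 (1.36 to 1.92). C1s1 and C1ra, proteases of the classical pathway, were at 0.582 (0.420 to 0.804) and 0.584 (0.387 to 0.879) at 24 hours and at 1.31 and 1.36 at 56 days. C7, a subunit of the membrane attack complex, was at 0.272 (0.142 to 0.478) at 56 days, from 182 and 13 UMIs.

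The remaining genes furthest from 1 were of varied function. At 24 hours, higher in IR, they included Anxa8 (an annexin, 1 and 40 UMIs, 24.8-fold, 4.2 to 1003), Exoc4 (an exocyst subunit, 5.88, 2.54 to 16.7), Samd9l (an interferon-induced antiproliferative gene, 9.91, 2.53 to 85.3) and Scg3 (a secretory granule protein, 17.3, 2.87 to 709). At 56 days Slc5a3 (the myo-inositol transporter) was at 9.26 (3.65 to 26.4) and Hspa1a (an inducible chaperone) at 4.63 (3.09 to 6.96), with 54.4% of its IR 56-days UMIs in 1 cell and a log2 ratio of -1.29 over FAPs with no endothelial or tendon UMI. Lower at 56 days were Tars (threonyl-tRNA synthetase, 43 and 0 UMIs, at least 3.76-fold), Zfp638 (a splicing and adipogenesis regulator, 0.112, 0.0133 to 0.421), Angptl1 (an angiopoietin-like secreted protein, 0.244, 0.120 to 0.447), Tppp3 (a tubulin polymerisation protein, 0.316, 0.201 to 0.475) and Picalm (a clathrin assembly protein, 0.198, 0.0526 to 0.528). The same group held Hsd11b1, which regenerates active glucocorticoid, at 0.119 (0.0141 to 0.448), Adamts1 (a versican-cleaving protease) at 0.121 (0.0143 to 0.456), Slc25a24 (a mitochondrial carrier) at 0.0829 (0.00205 to 0.486) and Saraf (a regulator of calcium entry) at 0.173 (0.0349 to 0.529). Of 3801 genes measured at both times, 24 were past 1.5-fold higher with an interval that left out 1 at both, 7 lower at both, 52 higher then lower and 26 lower then higher. By the same limits 356 of the 3801 were higher and 226 lower at 24 hours, and 183 higher and 203 lower at 56 days. Whether the overlaps exceed what such counts give by themselves was not tested.

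FAPs in muscle and other organs are often divided into an adventitial kind, marked by Pi16 and Dpp4, and an interstitial kind that carries more basement membrane and chemokine genes. FAPs with at least 1 UMI of Pi16 or Dpp4 made up 76.0% (54.9 to 90.6), 74.2% (55.4 to 88.1), 56.5% (43.3 to 69.0) and 56.5% (34.5 to 76.8), and thinned to 1000 UMIs 60.9%, 54.8%, 41.9% and 39.1%. The intervals of CON and IR overlapped at either time, and both 56-day libraries were lower than both 24-hour ones with overlapping intervals. Pi16 was found in 5.03%, 4.98%, 31.2% and 14.6% of leukocyte barcodes, against 0.529%, 2.71%, 1.31% and 2.44% for Col1a1. Whether that Pi16 was free RNA or the leukocytes' own was not tested, nor was the part of free RNA in the FAP shares. The cut is a range and not a type: 2, 3, 3 and 4 positive cells rested on 1 UMI.

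The split followed depth in part: positive cells had medians of 8459, 10021, 8473 and 6706 UMIs and negative ones 3178.5, 9358.5, 6508 and 2975. With at least 2 UMIs required the positive shares were 68.0%, 64.5%, 51.6% and 39.1%. Per UMI, positive cells were higher in several other adventitial genes, and the part of depth in this was not tested. Sema3c (a semaphorin) had 109 UMIs in positive and 0 in negative cells of CON 24-hours, and Cd55 (a complement decay accelerator) had 85 and 0. In that library 19 of 25 FAPs were positive, so the negative cells were few. Fbn1 was 13.6, 2.75, 6.59 and 5.10 times as high in positive as in negative cells. Gas6 was lower in them, at 0.214, 0.342, 0.402 and 0.368, and Igf1 at 0.372, 0.314, 0.335 and 0.274, so both stood higher in the cells without Pi16 and Dpp4. Genes of the interstitial list did not all follow. Col15a1 was lower in positive cells of each library, at 0.633, 0.238, 0.192 and 0.0886. Smoc2 was at 3.28, 0.222, 0.281 and 0.420 and Col4a1 at 2.81, 0.544, 0.433 and 0.652, so in CON 24-hours both were higher in positive cells. Thinned adventitial list UMIs exceeded interstitial ones in 14 of 23, 24 of 31, 26 of 62 and 8 of 23 cells.

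**Figure D5:**
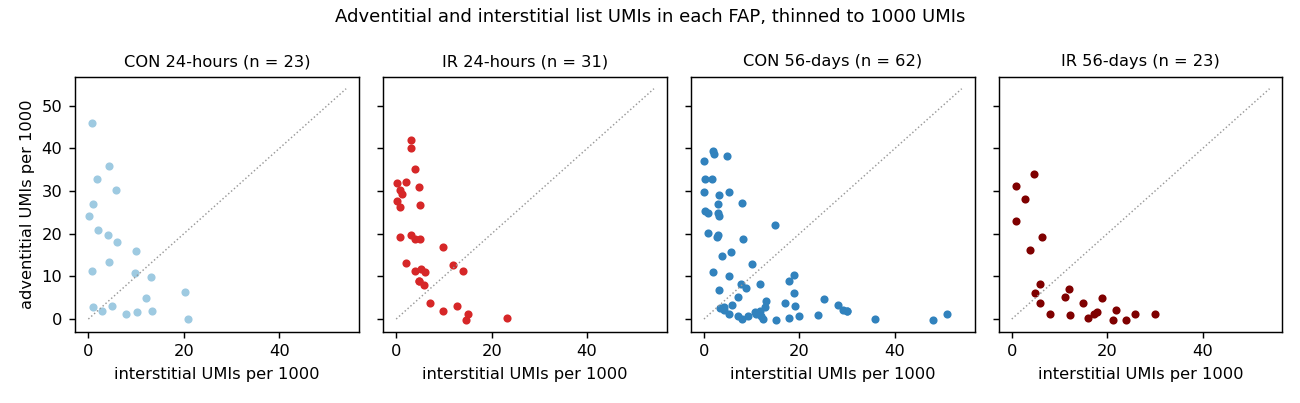
UMIs of the adventitial list (vertical) against the interstitial list (horizontal) in each FAP after thinning to 1000 UMIs, 1 panel per library; points carry a small random offset and the dotted line marks equal values. Cells above the line number 14 of 23, 24 of 31, 26 of 62 and 8 of 23.

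The irradiation ratios of Cdkn1a, Gas6 and Bst2 had overlapping intervals in both kinds. Cdkn1a was at 13.9 (8.75 to 23.3) in positive cells at 24 hours, and in negative cells at 39.0 (6.83 to 1554) on 1 control UMI. At 56 days it was at 5.58 (3.75 to 8.37) and 4.42 (1.44 to 13.5). Gas6 was at 5.45 (3.41 to 9.17) and 3.41 (2.11 to 5.81) at 24 hours and at 4.70 (2.93 to 7.62) and 5.14 (3.44 to 7.69) at 56 days. Bst2 was at 4.53 and 4.42 at 56 days. Col1a1 was below control in both kinds at 24 hours, at 0.430 (0.395 to 0.469) and 0.523 (0.451 to 0.607), but at 56 days it was 0.830 (0.711 to 0.966) in positive and 1.27 (1.04 to 1.53) in negative cells. Sparc differed likewise at 56 days, at 0.590 (0.515 to 0.673) and 1.33 (1.14 to 1.56). In the adventitial list 12 of 22 measured members were higher and 3 lower at 24 hours, against 2 of 21 higher and 5 lower at 56 days. For all measured genes the shares were 24.3% higher and 12.5% lower, then 14.8% and 23.3%. The 56-day adventitial counts lay near those. Creb5, a transcription factor of this kind, was at 2.17 (1.49 to 3.23) and 1.07 (0.760 to 1.48), and Pi16 itself was at 0.478 (0.406 to 0.562) and 0.781 (0.668 to 0.909). The interstitial list had 2 of 17 higher and 6 lower, then 9 of 23 higher and 5 lower, beside the same shares over all genes.

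Control FAPs also differed between the 2 times, when the animals were of different age. These values share a control library with each irradiation comparison. C7 was at 38.0 CPM in the earlier and 395 in the later control, and Inmt (an indolethylamine methyltransferase) at 16.3 and 169, with ratios of 10.4 (4.94 to 26.2) and 10.4 (3.42 to 51.4). Hsd11b1 was at 12.8 (3.40 to 108) and Prg4, the lubricin gene, at 4.18 (2.46 to 7.65). Lower in the later control were Col1a1 and the imprinted non-coding RNA genes H19 (25 and 0 UMIs, at least 20.9-fold) and Meg3 at 0.306 (0.251 to 0.373), and Dusp6, a phosphatase gene of ERK signalling, at 0.146 (0.0662 to 0.301). The interstitial list had 11 of 22 members higher and 0 lower in this comparison, and the adventitial list 7 higher and 2 lower of 22. Here 26.5% of all measured genes were higher and 12.6% lower, so the adventitial counts lay near the background.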

How the data were processed

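Single-cell RNA was counted as UMIs with the 10x 3′ v3 chemistry. The submitters' processing notes name Cell Ranger 5.0.0 and mm10. The deposited matrices hold raw UMI counts for 32285 genes, 1 matrix per library, with other steps not given in the sources used here. Library totals were 4715202 to 10121978 UMIs.

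From these counts, barcodes were kept by the limits of 200 genes, 500 UMIs and 20% mitochondrial UMIs, FAPs were selected by the rule given, and UMIs were summed per library and divided by the FAP total (CPM). Doublets were not called beyond the limits on endothelial, tendon and Ptprc UMIs, and ambient RNA was not removed. Ratios carry exact conditional binomial intervals and levels exact Poisson intervals. Shares carry Clopper-Pearson intervals, at the 95% level throughout. A prior of 0.5 UMIs entered each log2 ratio. A gene was measured with at least 20 UMIs over both libraries and past the fold at 1.5. Where a library had 0 UMIs, the fold is a bound against 3 UMIs. Thinned values draw 1000 UMIs per cell.

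Each group was 1 library, so no test was made. Named genes were the 10 furthest higher and 10 furthest lower per comparison by the interval bound nearest 1, besides list members. The members and lists were chosen with earlier results of these data known. Of the list entries, 3 were not matched and 654 genes were. Coordinates are those of GENCODE on GRCm38, and promoter windows are those of RefSeq. Scripts were tested on simulated counts with counting error only. There 20.2% of genes set as unchanged passed 1.5-fold in either direction at 24 hours, 27.1% at 56 days and 22.9% between the controls. Background shares past 1.5-fold therefore hold counting error as well. Python 3.11.15, numpy 2.4.6, scipy 1.17.1, pandas 2.3.3, R 4.3.3 and edgeR 4.0.16 (only for its TMM factors) were used.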

Additional observations from a re-analysis of the deposited data

Results flagged for a closer look

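Among the genes named or on the lists, 18 had opposite directions at the 2 times, past 1.5-fold with intervals that left out 1. Over all 3801 genes measured at both times, 52 were higher then lower and 26 lower then higher by those limits. Whether the effect of irradiation differed between the times was not tested, and each value is a ratio of 2 libraries. Higher at 24 hours and lower at 56 days were Fbn1 (1.69 and 0.494), Lama2 (1.72 and 0.439), Lamb1 (the laminin beta-1 chain, 1.50 and 0.639), Vcan (2.21 and 0.529), Loxl2 (2.06 and 0.441), Cd55 (3.07 and 0.560), Egfr (the epidermal growth factor receptor, 2.12 and 0.468) and Scg3, at 17.3 and then at least 1.66-fold lower on 19 and 0 UMIs.

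Lower at 24 hours and higher at 56 days were Apod (0.453 and 4.06), Apoe (0.10 and 3.76), Sfrp4 (a Wnt antagonist, 0.495 and 1.99), Gdf10 (a TGF-beta family ligand, 0.471 and 2.53), Pdgfrl (a receptor-like gene, 0.453 and 3.18), Crispld2 (a secreted lipopolysaccharide-binding protein, 0.237 and 1.73), Cfb (complement factor B, 0.248 and 2.54), C4b (0.0295 and 3.81), Mmp3 (0.0269 and 15.3) and Smim41 (0.0652 and 13.3). Without the cell of most UMIs, the log2 ratio of Gdf10 at 24 hours was 0.19 (-1.28 to 1.95) on 6 and 12 UMIs. After thinning it was 1.15 (-1.77 to 7.19) on 1 and 4 UMIs. Both intervals included no change, so its lower value at 24 hours was not kept. C4b, Mmp3 and Smim41 rest on at most 23 UMIs in a library, Cfb, Scg3, Mmp3 and Smim41 had under 20 UMIs over both libraries at 1 time, and for C4b and Mmp3 a single UMI is one side of a ratio. The depth of FAPs was also opposite at the 2 times, with medians of 6019 and 9422 UMIs at 24 hours and 6939.5 and 4845 at 56 days in CON and IR, and its part in these values was not tested.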

How the results depend on the processing

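Each value was recomputed with other thresholds for cells, other minimums for measured genes, cells weighted equally, thinning to 1000 UMIs, TMM factors and the top cell of each gene left out. Of 2763 recomputed gene values 2599 kept their size within the interval, 153 moved and 11 reversed, and of 180 list medians 175 kept theirs. Counting small values too, 54 gene values and 15 list medians had the other sign. The 15 medians were of elastic fibre, immediate early, adventitial and interstitial genes at 56 days and fibrillar collagens at 24 hours. Without replicate libraries, leaving out a replicate could not be run. No paired analysis was possible because each group is 1 library and the animals in a pool are not told apart. Selecting on thinned counts gave FAP shares of 1.05%, 0.462%, 2.70% and 1.43%.

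The log2 ratio of Cdkn1a at 24 hours was 2.97 after thinning, 5.03 without top cells and 3.14 with Pdgfra not required and 50 UMIs of the 6 markers, a choice made after the data were seen. Thinning gave 24-hour values of 1.15 (Gdf10) and -0.19 (Bst2), and 56-day values of -0.33 (Pros1), -0.12 (Serpine2), -0.68 (Ltbp3) and -0.15 (Oasl2, Psmb9 and Penk). Gdf10 was at 0.19 without top cells, Sema3c at -0.21 with cells weighted equally and Hspa1a at -1.29 with 0 endothelial and 0 tendon UMIs. Medians that moved were those of fibrillar collagens at 24 hours (0.26, with 0 endothelial and 0 tendon UMIs) and, thinned at 56 days, of elastic fibres (-0.68) and immediate early genes (0.58).

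The share of genes lower at 24 hours was 20.5% with cells weighted equally, 24.3% thinned and 26.9% with no minimum. At 56 days the share higher was 9.62% at 50 UMIs, 23.9% with no minimum and 8.49% without top cells, and the share lower was 40.1% and 35.1% under the last 2. Between controls the share lower was 22.1% with no minimum and 7.99% without top cells. The cause of these shifts was not tested. With 23 to 62 cells per library, genes of few UMIs and shares of cells are the values that depth limits most.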
